A study of Homo sapiens with 8 samples.

Results

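The cyclins and cyclin-dependent kinases (CDKs) that drive the cell cycle were followed through ribosome footprints in OVCAR3 cells, an established human ovarian carcinoma line that is known for amplification of CCNE1. The set was chosen by name and holds 10 of the 20165 gene regions in the files: the cyclins CCND1, CCND2, CCND3, CCNE1, CCNA2 and CCNB1 and the kinases CDK4, CDK6, CDK2 and CDK1. Ribosome profiling (Ribo-seq) sequences the stretches of mRNA that ribosomes shield from RNase, so the count on a coding sequence follows both the amount of an mRNA and how many ribosomes it carries. RNA-seq was not analysed here, so all values are footprint abundance and not translation efficiency. In a culture of mixed cell cycle phases, fewer cells in a phase and fewer footprints per cell cannot be told apart.

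A CDK is active only when a cyclin is bound to it, and the cyclins, more than the kinases, rise and fall through the cycle by transcription and by ubiquitin-dependent destruction. D-type cyclins activate CDK4 and CDK6 in G1 and start the phosphorylation of RB, cyclin E activates CDK2 at entry into S phase, cyclin A works with CDK2 and CDK1 through S and G2, and cyclin B with CDK1 drives mitosis. Cyclin E1 amplification is a known event in high-grade serous ovarian cancer.

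The study asks what happens to translation when RACK1, a protein of the small ribosomal subunit, cannot be mono-ADP-ribosylated (MARylated), and when its hydrolase TARG1 is depleted. There were 4 groups of 2 libraries, and every value below with ± is the SD over 2 libraries (n = 2). RACK1-WT and RACK1-Mut cells shared a doxycycline-inducible shRNA (pTRIPZ) against their own RACK1 and an inducible HA-tagged RACK1, wild type in the former and mutated at the acceptor sites for mono-ADP-ribose in the latter, and both were given 1 µg/ml doxycycline for 48 h. These lines were made by lentiviral transduction and antibiotic selection, and the sources do not describe single clones. siControl and siTARG1 cells were OVCAR3 cells transfected with 30 nM of a control siRNA or an siRNA against OARD1, the gene of TARG1, for 48 h. The study had more than 1 siRNA against TARG1, and which of them these libraries carry is not given in the sources used here. RACK1-WT and siControl cells differ in construct, doxycycline and transfection as well as in the experiment, which cannot be told apart, so levels in the experiments are given side by side with no test between them.

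Coding counts summed to between 3798750 and 6604190 per library in the RACK1 experiment and to between 3100947 and 4207939 in the siRNA experiment. All 9 matched epithelial and ovarian carcinoma markers (among them EPCAM, PAX8 and MUC16) had at least 10 coding counts in every library and summed to 25815 to 76064 per library. Leukocyte markers summed to 34 to 101, fibroblast markers to 78 to 258 and endothelial markers to 2 to 15. The targeted gene checked the siRNA labels: with control siRNA OARD1 had 121 and 69.1 normalized counts, and with siTARG1 it had 5.83 and 6.75. RACK1 counts include the re-expressed RACK1 and so do not check the knockdown. They were lower in RACK1-Mut than in RACK1-WT cells (log2 fold change -0.42, DESeq2 adjusted p = 1.34e-08) and lower in siTARG1 than in siControl cells (-0.25, adjusted p = 0.00297).

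The positions of the genes are those of the GENCODE annotation on GRCh37. On the forward strand lie CCNE1 (chr19:30302898-30315219), CCND1 (chr11:69455924-69469242), CCND2 (chr12:4378937-4414519), CCNB1 (chr5:68462962-68474072), CDK1 (chr10:62538089-62554610) and CDK2 (chr12:56360565-56366573). On the reverse strand lie CCND3 (chr6:41902672-42018095), CCNA2 (chr4:122737599-122745038), CDK4 (chr12:58141510-58149796) and CDK6 (chr7:92234235-92465887). The counts used below cover the coding exons of these genes, and the untranslated exons are described separately.

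A level here is the number of coding counts per kilobase of coding sequence and per 1000000 coding counts of the library, which allows genes to be set against each other. Ranked by the mean of all 8 libraries among 11207 genes with at least 80 summed coding counts, the 9 genes that could be measured all lay in the upper part of the distribution. CDK1, the mitotic kinase, had the highest mean level (288.8, above 94.2% of genes). CCNB1, its cyclin, followed at 263.4 (above 93.6% of genes), and CDK4, the G1 kinase, stood at 241.7 (above 92.9%). The middle of the range held CCNA2 at 109.1, CCND1 at 104 and CCNE1 at 99.5, each above 83.9% to 85.2% of genes. CDK2 had a mean level of 82.1 (81.0%), CDK6 of 66.3 (77.4%) and CCND3, the lowest of the measured genes, of 42.9 (68.2%). Together the set took 0.133% ± 0.000887 of coding counts in RACK1-WT, 0.136% ± 0.00314 in RACK1-Mut, 0.137% ± 0.000538 in siControl and 0.135% ± 0.000197 in siTARG1 cells.

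CCND2 was at background. The gene of cyclin D2 had 0 coding counts in 7 libraries and 1 in RACK1-Mut replicate 1, a level of 0.275. The upper limit that a count of 0 allows is 3 counts, which correspond to a level of 0.522 to 1.11 in the 7 libraries. The limit covers counting error only. CCND2 entered no test, and in these cells the D-type cyclins measured were CCND1 and CCND3.

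Within the RACK1 experiment the order of the levels was the same in both groups. RACK1-WT libraries had CDK1 first (349 and 319), then CCNB1 (258 and 256), CDK4 (180.1 and 179), CCND1 (152 and 143), CCNA2 (109 and 112), CCNE1 (86.0 and 90.8) and CDK2 (74.1 and 80.2). CDK6 (43.8 and 47.1) and CCND3 (39.1 and 47.9) closed the order, and their ranges overlapped. Every other pair of neighbours in RACK1-WT, and every pair in RACK1-Mut, had ranges that did not overlap. The siControl cells ranked differently. CCNB1 stood first (314 and 306), followed by CDK4 (271 and 305) and CDK1 (241 and 241), and no ranges overlapped among these 3. CCNA2 (93.7 and 97.1), CCNE1 (95.4 and 91.5), CDK6 (92.3 and 80.2) and CDK2 (81.3 and 86.3) formed a run in which each overlapped the next. CCND1 (71.7 and 56.3) and CCND3 (35.4 and 44.4) came last. In siTARG1 cells CDK4 was first (295 and 310.3), CDK1 (239.8 and 236) and CCNB1 (246 and 225) overlapped, and so did CCNE1 (108 and 128) and CCNA2 (112 and 104).

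**Figure D1:**
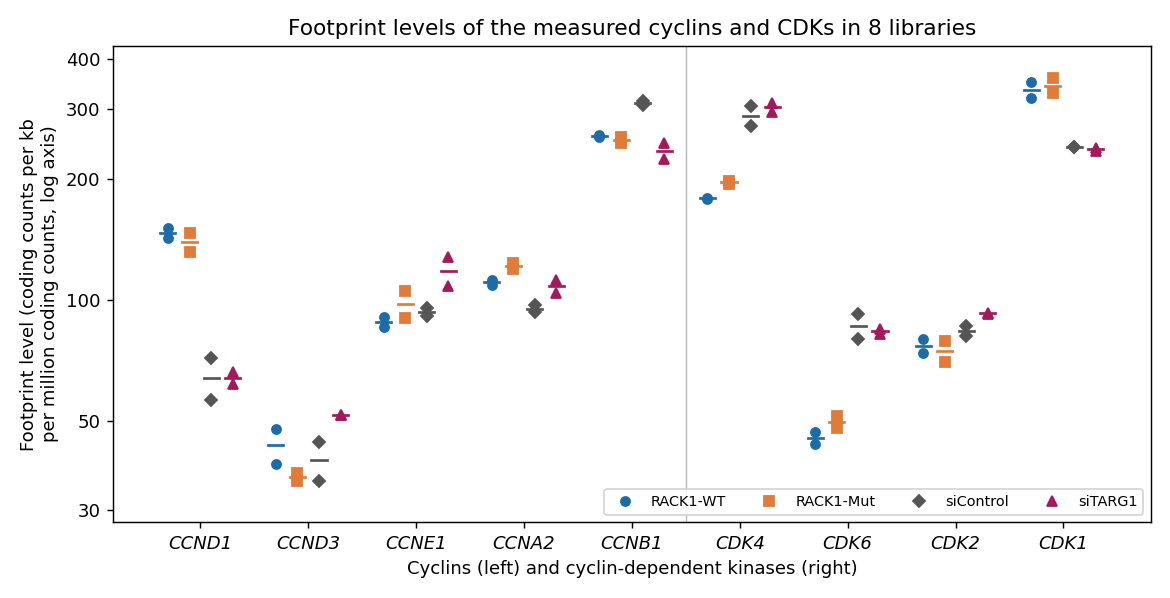
Footprint level of each measured cyclin and CDK (coding counts per kilobase per 1000000 coding counts, log axis) in the 8 libraries. Points are libraries, horizontal bars are group means, and colour and shape give the group. CCND1 and CDK1 sat higher in the RACK1 experiment, CDK4 and CDK6 in the siRNA experiment, and within an experiment most groups lay close together, with CCNB1 lower in siTARG1 than in siControl libraries.

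Levels differed more between the experiments than within them for several genes. The mean level of CCND1, the cyclin of early G1, was 2.30 times as high in RACK1-WT as in siControl cells, and that of CDK1 was 1.39 times as high. In the other direction, siControl over RACK1-WT was 1.90 for CDK6 and 1.60 for CDK4. For CCNB1 it was 1.21, but CCNB1 differed more within the siRNA experiment. Its mean level was 257 in RACK1-WT, 310 in siControl and 235 in siTARG1 cells. The ratios of RACK1-WT to siControl for CCNE1 (0.945), CDK2 (0.92), CCND3 (1.09) and CCNA2 (1.16) lay nearer to 1. No part of these differences can be assigned to a construct, a treatment or an experiment.

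RACK1-Mut was set against RACK1-WT to ask whether footprints on cell cycle mRNAs differ between cells with mutant and wild-type RACK1. RACK1 footprints themselves were at 74.6% of RACK1-WT in RACK1-Mut cells. The mutated sites and the lower RACK1 footprints can therefore not be told apart, and the amount of RACK1 protein was not measured here. None of the 9 measured genes was called at an adjusted p under 0.05 in DESeq2, none had an unadjusted p under 0.05, and edgeR called 0 as well. Over all 12520 genes tested 10 were called, or 0.0799%, and the count of 0 among 9 is near that background. In 5 of the 9 genes both libraries of a group lay above both of the other, against 37.6% of all genes. The median log2 fold change of the 9 genes was 0.01, and that of all genes was near 0 too (-0.00168). The adjusted p of every member was 0.999941 before rounding.

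The values in the libraries, as counts normalized within this comparison, were as follows for the cyclins of G1 and S phase. CCND1 had 687 and 641 in RACK1-WT and 582 and 654 in RACK1-Mut libraries. CCND3 had 175 and 212 against 155 and 163. CCNE1 had 541 and 565 against 647 and 559. CCND3 was lower in both RACK1-Mut libraries, whereas CCND1 and CCNE1 overlapped between the groups. The fold change of CCND3 was -0.28 on the log2 scale (95% interval -0.68 to 0.11), the largest of the 9 in size and also the least precise. CCND1 was at -0.10 (-0.34 to 0.13) and CCNE1 at 0.13 (-0.12 to 0.37).

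CCNA2, the cyclin of S and G2 phase, had 726 and 735 normalized counts in RACK1-WT and 774 and 807 in RACK1-Mut libraries. CCNB1 had 1714 and 1679 against 1657 and 1607. Both separated the groups without overlap, CCNA2 upward and CCNB1 downward, by 0.11 (-0.10 to 0.32) and -0.06 (-0.22 to 0.11) on the log2 scale. Among the kinases, CDK4 had 839 and 824 against 902 and 889, a log2 fold change of 0.11 (-0.09 to 0.31). CDK6, which shares the D-type cyclins with CDK4, had 219.5 and 233 against 235 and 253, at 0.11 (-0.23 to 0.45). CDK4 and CDK6 were thus higher in both RACK1-Mut libraries by a margin that did not pass the test. CDK2 had 339 and 363 against 353 and 315, at -0.07 (-0.36 to 0.22), and CDK1 had 1601 and 1446 against 1597 and 1473, at 0.01 (-0.17 to 0.19). For these kinases the groups overlapped. All 9 intervals lay between -0.68 and 0.45.

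**Figure D2:**
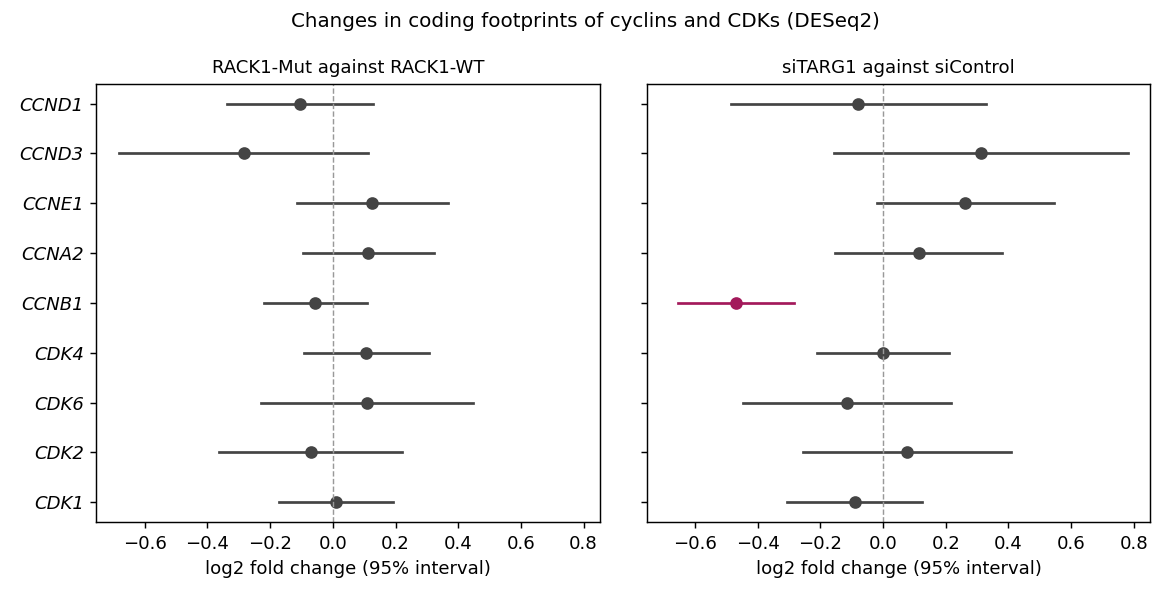
Log2 fold change of coding footprints for each measured cyclin and CDK in RACK1-Mut against RACK1-WT (left) and siTARG1 against siControl (right), from DESeq2. Points are estimates, lines are 95% intervals, and colour marks an adjusted p under 0.05. CCNB1 in siTARG1 cells, at -0.47 (-0.65 to -0.28), is the marked gene.

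In siTARG1 cells CCNB1 fell and no other member passed the test. CCNB1, the cyclin that carries CDK1 into mitosis, had 1513 and 1475 normalized counts with control siRNA and 1123 and 1035 with siTARG1. Both siTARG1 libraries lay below both siControl libraries. The means were 1494 ± 26.9 and 1079 ± 62.4, so siTARG1 cells had 72.3% of the control footprints, a log2 fold change of -0.47 (SE 0.0943, 95% interval -0.65 to -0.28, DESeq2 adjusted p = 1.64e-05). edgeR gave -0.47 with an adjusted p of 1.18e-05. Leaving out siTARG1 replicate 2 took the value to -0.41 with an adjusted p of 0.0516, just past the threshold, and the other omissions kept the call. Of the 9 genes, 1 was called, and over all 12056 genes tested 1974 were called, or 16.4%, of which 866 were higher (7.18%) and 1108 lower (9.19%), so the count of calls among these genes is near the background and the result is about CCNB1 alone. In 6 of the 9 genes the groups were separate, against 62.6% of all genes.

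CDK1, the partner of CCNB1, had 799.8 and 799.9 normalized counts in siControl and 754 and 749 in siTARG1 libraries. The siTARG1 libraries were the lower ones, and the log2 fold change of -0.09 (-0.31 to 0.13, adjusted p = 0.666) did not pass the test. CCNA2 had 450.0 and 466 against 511 and 479, higher in both siTARG1 libraries at 0.11 (-0.15 to 0.38, adjusted p = 0.651). The interval of CCNB1 thus lay below 0, while those of CDK1 and CCNA2 included it.

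CCNE1 had 435 and 417 normalized counts in siControl and 468 and 558 in siTARG1 libraries. Both siTARG1 libraries were above both siControl libraries, and the log2 fold change was 0.26 (-0.02 to 0.54) with an adjusted p of 0.222 in DESeq2 and 0.0609 in edgeR. CDK2, the kinase that cyclin E1 activates, had 269.8 and 286 against 292 and 294, at 0.08 (-0.26 to 0.41). Its siTARG1 values were also the higher ones, by less than the interval resolves.

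Among the G1 genes, CCND3 had 115 and 144 normalized counts in siControl and 159.8 and 161 in siTARG1 libraries, with no overlap and a log2 fold change of 0.31 (-0.16 to 0.78, adjusted p = 0.427). CCND1 had 236 and 185 against 192 and 208, at -0.08 (-0.48 to 0.33). CDK6 had 335 and 291 against 292 and 287, at -0.12 (-0.45 to 0.22). CCND1 and CDK6 overlapped between the groups. CDK4 had 914 and 1029 against 941 and 1001, and its fold change of 0.00 (-0.21 to 0.21) changed sign with TMM scaling, in edgeR and when single libraries were left out. GENCODE lists pseudogenes of CDK4, CCND2 and CCND3, and because a read could be counted at several places, the counts of CDK4 and CCND3 are uncertain to that extent.

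Whether a member responded differently in the experiments was tested as the difference of the log2 fold changes, RACK1-Mut against RACK1-WT minus siTARG1 against siControl, in a fit of all 8 libraries. CCNB1 differed by 0.41 (SE 0.112, 95% interval 0.19 to 0.63, DESeq2 adjusted p = 0.00396), and it was the only member called, against 12.3% of the 12955 genes tested. Without siTARG1 replicate 2 its adjusted p was 0.0573, and without RACK1-Mut replicate 1 it was 0.0607. CCND3, which was at -0.28 in RACK1-Mut and at 0.31 in siTARG1 cells, differed by -0.61 (-1.16 to -0.05), with an adjusted p of 0.151 in DESeq2 and 0.0317 in edgeR. The other 7 differences lay between -0.15 and 0.22 with intervals that included 0.

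Ratios of levels within a library do not depend on the scaling of the library, and they set each cyclin against its kinase. They are given as descriptions with no test. The ratio of CCNB1 to CDK1 was 1.30 and 1.27 with control siRNA and 1.03 and 0.953 with siTARG1, so the groups did not overlap and the means were 1.29 ± 0.0233 and 0.990 ± 0.0525. In the RACK1 experiment the same ratio was 0.770 ± 0.0441 in RACK1-WT and 0.734 ± 0.0263 in RACK1-Mut cells, with overlap. The ratio of CCNA2 to CDK2 was 1.44 ± 0.0547 and 1.64 ± 0.180 in RACK1-WT and RACK1-Mut, and 1.14 ± 0.0188 and 1.17 ± 0.0572 in siControl and siTARG1 cells.

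CCNE1 footprints exceeded those of CDK2 per length in all 8 libraries. The ratio of CCNE1 to CDK2 was 1.16 and 1.13 in RACK1-WT, 1.33 and 1.29 in RACK1-Mut, 1.17 and 1.06 in siControl and 1.16 and 1.38 in siTARG1 libraries. RACK1-Mut lay above RACK1-WT without overlap, as it also did for CCNA2 to CDK2, whereas the siRNA groups overlapped in both ratios. Such separation was common, as single genes had it in 37.6% of cases in the RACK1 and 62.6% in the siRNA experiment. The summed level of CCND1 and CCND3 over that of CDK4 and CDK6 was 0.848 ± 0.00491 in RACK1-WT, 0.713 ± 0.0503 in RACK1-Mut, 0.278 ± 0.0238 in siControl and 0.300 ± 0.000517 in siTARG1 cells. G1 kinases thus carried more footprints per length than the D-type cyclins in every library, by a wider margin in the siRNA experiment. The groups of this ratio did not overlap in either experiment, with RACK1-Mut below RACK1-WT and siTARG1 above siControl. Between the D-type cyclins, CCND1 exceeded CCND3 by 3.43 ± 0.631 times in RACK1-WT, 3.84 ± 0.172 in RACK1-Mut, 1.65 ± 0.535 in siControl and 1.24 ± 0.0634 times in siTARG1 cells. CDK4 exceeded CDK6 by 3.37 ± 0.614 to 3.96 ± 0.216 times in the 4 groups.

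**Figure D3:**
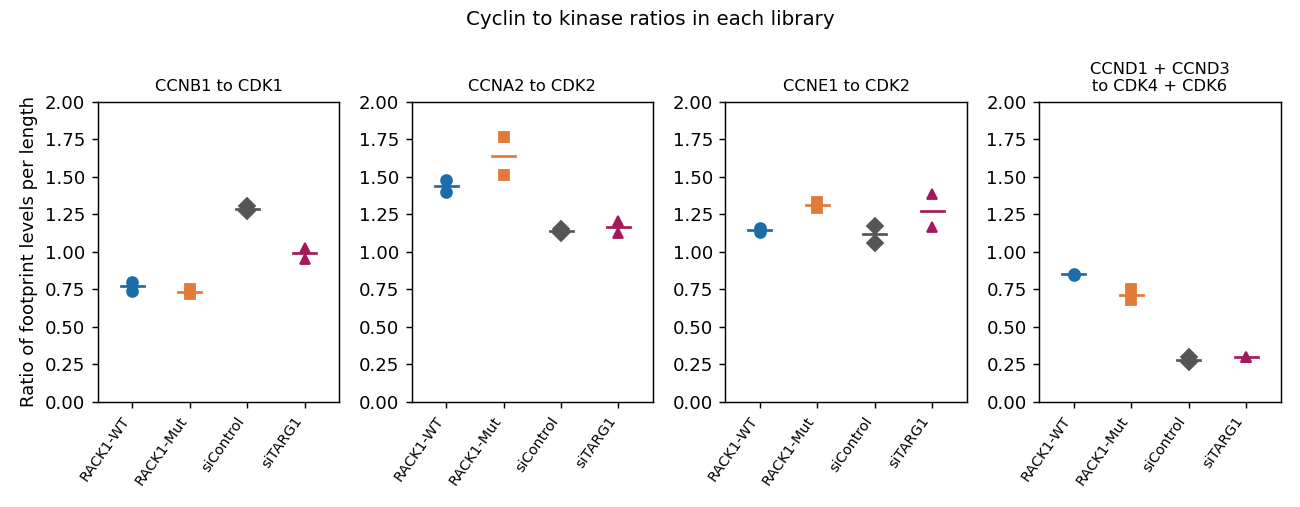
Ratios of footprint levels per length within each library, for CCNB1 to CDK1, CCNA2 to CDK2, CCNE1 to CDK2 and the sum of CCND1 and CCND3 to the sum of CDK4 and CDK6. Points are libraries and bars are group means. CCNB1 to CDK1 is near 1.29 in siControl and near 0.990 in siTARG1 cells, and the ratio of D-type cyclins to their kinases is below 1 in every library.

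The share of footprints in the 5′ UTR was higher for CDK4 and CDK6 than for the other measured genes. Ribosomes that translate upstream of the start codon leave footprints in the 5′ UTR, and these were expressed as a percent of UTR and coding counts of the gene. The share of CDK6 was 14.2% on average over the 8 libraries (9.75% to 18.9%), higher than in 93.0% of 10047 genes, and that of CDK4 was 9.57% (6.90% to 13.2%), higher than in 87.7%. The other 7 measured genes had mean shares of 0.746% (CCND1) to 3.55% (CDK2), against a median of 1.61% over all genes. The lowest library of CDK4 lay above the highest library of any of these 7, which was 6.08% for CDK2. These shares are not corrected for length, and the counted 5′ UTRs of CDK6 (529 nt) and CDK4 (366 nt) were the longest, against 199 to 305 nt. Per length, group means of 5′ UTR density were 22.7% to 33.1% of coding density for CDK4 and 25.7% to 35.9% for CDK6. The lowest, 22.7% ± 5.94 for CDK4 in siTARG1, was within the spread of CDK2 in siControl (21.5% ± 4.00). Per length the separation was thus less clear.

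By group, the 5′ UTR share of CDK6 was 13.1% ± 4.79 in RACK1-WT, 12.05% ± 2.64 in RACK1-Mut, 15.6% ± 4.68 in siControl and 16.0% ± 3.65 in siTARG1 cells. That of CDK4 was 11.7% ± 2.06, 9.84% ± 0.976, 8.41% ± 0.0350 and 8.31% ± 1.99 in the same order. For both kinases the groups of each experiment overlapped. The counts behind these shares were 22 to 90 for CDK6 and 66 to 153 for CDK4. CCNB1 had 36 and 34 counts in its 5′ UTR in siControl and 24 and 9 in siTARG1 libraries, so its 5′ UTR counts were also lower there, and its share was 2.36% ± 0.441 and 1.36% ± 0.552. Shares in the 3′ UTR were small for every member, with means of 0.0393% (CCNB1) to 0.963% (CDK6), against a median of 0.297% over all genes.

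In the GENCODE transcript used for each gene, CDK4 and CDK6 each had 2 ATG triplets in the 5′ UTR, in any frame, and the other 8 genes had 0. Of 18368 transcripts 44.6% had at least 1. The presence of a triplet is a description of the sequence and no evidence that a ribosome starts there. The counted 5′ UTR regions join several transcripts and are longer than these single ones, and footprints at the edge of a coding sequence move with the offset used to place a read.

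**Figure D4:**
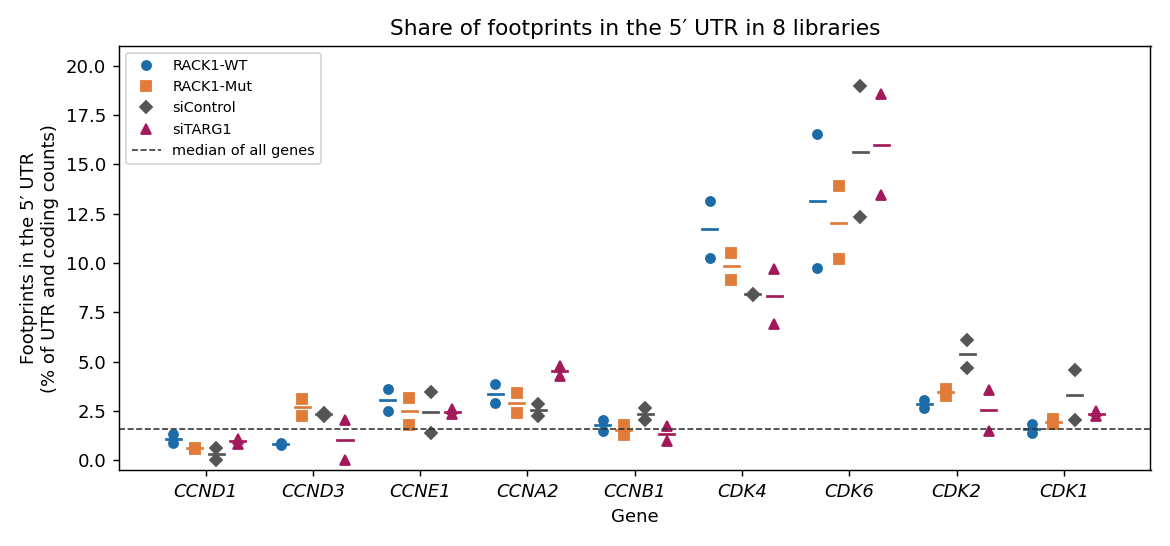
Footprints in the 5′ UTR as a percent of UTR and coding counts (vertical axis) for each measured gene in the 8 libraries. Points are libraries, bars are group means, and the dashed line is the median of all genes (1.61%). CDK4 and CDK6 lie above the other genes in every library in this share, which is not corrected for UTR length.

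The promoters of CCNB1 and CDK1 are shown because these genes encode partners, and CCNB1 but not CDK1 was called in siTARG1 cells. The sequences run from 250 bases before to 50 after the gene start and come from RefSeq on GRCh38.p14, where 7 of the 10 genes had an entry. Capitals mark the CCAAT box and the CHR element, both known from promoters of G2 and mitotic genes, searched as CCAAT and TTTGAA on both strands with no overlap between them. CCNB1 is at chr5:69166900-69167199 and CDK1 at chr10:60778081-60778380, both on the forward strand.
CCNB1: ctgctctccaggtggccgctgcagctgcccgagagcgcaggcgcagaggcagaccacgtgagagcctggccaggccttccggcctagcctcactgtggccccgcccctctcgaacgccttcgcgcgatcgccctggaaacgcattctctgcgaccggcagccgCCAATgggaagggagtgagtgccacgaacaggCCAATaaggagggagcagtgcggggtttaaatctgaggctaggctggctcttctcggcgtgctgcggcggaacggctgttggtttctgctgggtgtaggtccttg
CDK1: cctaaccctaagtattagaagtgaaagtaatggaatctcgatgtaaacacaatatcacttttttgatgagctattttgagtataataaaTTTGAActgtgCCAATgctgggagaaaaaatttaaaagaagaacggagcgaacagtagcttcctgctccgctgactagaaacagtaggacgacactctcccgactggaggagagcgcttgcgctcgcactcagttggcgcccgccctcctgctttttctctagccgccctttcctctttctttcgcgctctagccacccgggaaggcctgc
The CCNB1 window holds 2 CCAAT boxes and no TTTGAA, and the CDK1 window holds 1 of each. No other form of the CHR element was searched, so a window without TTTGAA is not shown to lack the element. CCAAT occurred in 34.6% of 35116 promoters and in 4 of the 7 members with an entry (CCND3, CCNA2, CCNB1 and CDK1). TTTGAA occurred in 15.2% of promoters and among the members in CDK1. A match is a description of these letters and says nothing of binding.

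For the siRNA experiment, 3′ UTRs were searched for 7-letter stretches of TGAACATA and TGAATATA, words that came from an earlier look at these same libraries. The siRNA sequence is not given in the sources used here. Stretches of TGAACATA were found in the 3′ UTR of CCND2 and CDK6 and in 15.9% of 18310 transcripts, and stretches of TGAATATA in CDK1, CDK4 and CDK6 and in 20.6%. CDK6, whose 3′ UTR of 10219 nt is the longest of the set, was the only member with all 8 letters of a word, and it held both. All 8 letters occurred in 2.98% of the transcripts for TGAACATA and in 5.55% for TGAATATA. The sites are shown with the word in capitals, on GRCh37 and the reverse strand, at chr7:92242122-92242149 and chr7:92236799-92236826.
CDK6 first site: atggctagagTGAACATAgctttagttt
CDK6 second site: ttagtagattTGAATATAtagatgtagt
CCND1, CCND3, CCNE1, CCNA2, CCNB1 and CDK2 held no 7-letter stretch of either word. Whether any siRNA acted through such stretches on a member was not tested.

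The genes around the set were described by 8 lists of 93 further cell cycle, cyclin and CDK genes. In RACK1-Mut cells 0 of the 88 tested were called by DESeq2, 1 had an unadjusted p under 0.05, and edgeR called 1. Over all 12520 genes tested these counts were 10, 205 and 30. The 1 listed gene was CDC25B, a phosphatase that activates cyclin and CDK complexes. It had 921 and 1030 normalized counts in RACK1-WT and 759 and 765 in RACK1-Mut libraries. Both RACK1-Mut libraries were lower, and the log2 fold change was -0.36 (DESeq2 adjusted p = 0.633, edgeR adjusted p = 0.0260). The median over the 88 genes was 0.02.

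In siTARG1 cells 24 of the 87 tested genes were called, 8 higher and 16 lower, against 16.4% of all genes (7.18% higher and 9.19% lower), and the median log2 fold change was -0.05 (0.00 over all genes). edgeR called 38 of them, against 3470 of all 12056 genes tested. With any single library left out the count was lower, as it was over all genes. The CDK inhibitors had 3 of 5 called, all lower, against 9.19% of all genes called lower. CDKN1A (p21) had 59.8 and 76.3 normalized counts in siControl and 17.5 and 19.1 in siTARG1 libraries, a log2 fold change of -1.89 (adjusted p = 0.000417). CDKN2B (p15), which binds CDK4 and CDK6, was at -0.52 (adjusted p = 0.0296), and CDKN3, a phosphatase that acts on CDKs, at -0.75 (adjusted p = 0.0121). CDKN1B (p27) was at 0.01 and did not pass the test.

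Enzymes that add or remove the inhibitory phosphate of CDK1 were above 0 in 4 of 5 cases, with 1 call. Over all 12056 genes tested 6071 were above 0 and 16.4% were called. WEE1, the kinase that places it, rose from 384 and 381 normalized counts to 492 and 520 (log2 fold change 0.40, adjusted p = 0.0280). CDC25B was at 0.46 with an adjusted p of 0.0969. Of the other cell cycle cyclins 1 of 6 was called, near the 16.4% of all genes. It was CCNG1, a p53 target, at -0.61 (adjusted p = 0.00760). CCNB2, the other B-type cyclin of mitosis, was at -0.16 with an adjusted p of 0.456. The CDK-activating kinase and Cks subunits had 0 of 5 called by DESeq2, 4 with an unadjusted p under 0.05 and 4 called by edgeR. Over all 12056 genes tested, 3129 had an unadjusted p under 0.05 and edgeR called 3470. CDK7, CCNH and MNAT1, which together form the kinase that phosphorylates the activation loop of CDKs, were at -0.44, -0.46 and -0.45. Their DESeq2 adjusted p was 0.155, 0.104 and 0.0545. The Cks subunits CKS1B and CKS2 were above 0, at 0.24 and 0.04 (DESeq2 adjusted p = 0.0701 and 0.921).

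Of the RB, E2F, MuvB and FOXM1 genes 3 of 19 were called, near the 16.4% of all genes. E2F3, a transcription factor of S phase genes, rose from 192 and 137 normalized counts to 294 and 265 (0.75, adjusted p = 0.00344). Its dimerization partners TFDP1 and TFDP2 fell, by 0.56 and 0.65 on the log2 scale (adjusted p = 0.00449 and 0.00550). In total 13 of the 19 genes were above 0 and the median was 0.27.

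The ubiquitination list, which holds the ligases that destroy cyclins and their regulators, had 9 of 17 called, 3 higher and 6 lower, against 7.18% and 9.19% of all genes. CUL1 (0.64), SKP1 (0.27) and DDB1 (0.24), which are scaffold or adaptor subunits of cullin ligases, rose. The 3 largest falls among the called genes were in BTRC (-1.47) and FBXW11 (-0.84), the F-box proteins that recognise WEE1 and other phosphorylated targets, and in CDC27 (-0.77), a subunit of the anaphase-promoting complex that marks cyclin B1 for destruction. CDC20, the activator of that complex in mitosis, fell from 831 and 775 normalized counts to 607 and 541 (-0.48, adjusted p = 0.000921). On the same list ANAPC2 (0.17), ANAPC10 (0.01), FZR1 (-0.07) and UBE2C (-0.20) were not called, and UBE2S (-0.61) was called lower. In the mitotic list 5 of 16 were called, 2 higher and 3 lower, against 16.4% of all genes. MKI67, the proliferation marker Ki-67, fell from 881 and 824 to 504 and 521 (-0.74, adjusted p = 2.15e-08). AURKA (-0.64) and CENPE (-0.52), a mitotic kinase and a kinetochore motor, fell as well, whereas MAD2L1 (0.34) and SGO1 (1.06), of the spindle checkpoint and of sister chromatid cohesion, rose. PLK1 was at -0.06 and was not called. Of the transcriptional cyclins and CDKs, which serve transcription and RNA processing, 2 of 14 were called, near the 16.4% of all genes. They were CCNT1 (-0.61) and CCNT2 (1.05), cyclins that share CDK9 as partner.

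**Figure D5:**
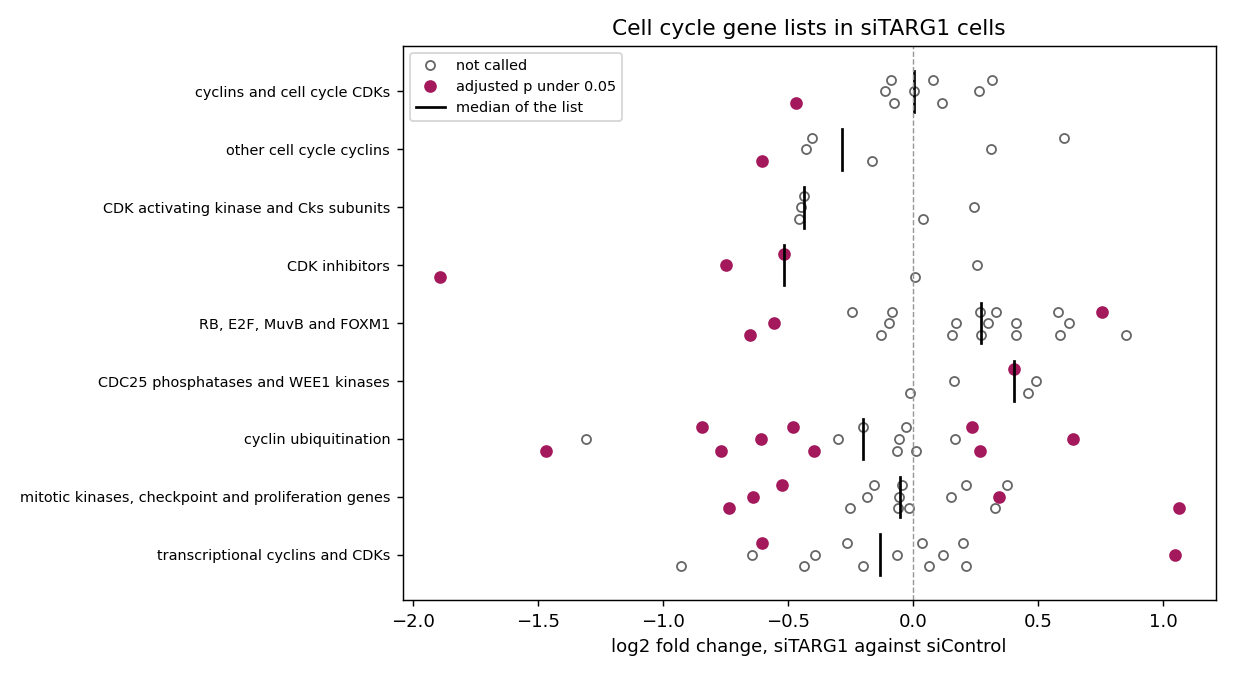
Log2 fold change in siTARG1 against siControl cells (horizontal axis) for each tested gene of the cyclin and CDK set and of the 8 lists around it. Filled points have a DESeq2 adjusted p under 0.05, open points do not, and black bars are list medians. The cyclin and CDK set has 1 filled point, CCNB1, and the CDK inhibitor and ubiquitination lists hold 3 of 5 and 9 of 17.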

How the data were processed

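Ribosome footprints of 4 groups of 2 OVCAR3 libraries were analysed, with groups and replicate numbers taken from the sample titles. In the authors' methods, linkers, identifiers and barcodes were removed, rRNA reads were discarded with Bowtie 1.1.2, and the rest were aligned to transcripts with TopHat 2.1.1, with many hits per read allowed. No source says whether identifiers were collapsed. The deposited files hold counts that the authors made with Plastid for exons, UTRs and coding sequences of merged regions (hg19/GRCh37, GENCODE 24). Per the file headers, reads of 26 to 36 nt were placed 14 nt in from their 5′ end. The methods instead count from the 3′ end, and this conflict was not resolved. The deposited RPKM values of the authors served only as an alternative level.

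Symbols came from GENCODE 44 on GRCh37 and matched 19612 of 20165 regions (97.3%). Of the 93 genes of the lists, CDKN2A, CDKN2C, CDKN2D and ANAPC11 were not analysed here, and LIN37 shared a region with another gene. Coding counts with a sum of at least 10 over a comparison's libraries were tested with the Wald test of DESeq2 1.42.0 in R 4.3.3, as in the study's methods, and a call needed an adjusted p (Benjamini-Hochberg, over all genes) under 0.05. DESeq2 left 935 genes of the siTARG1 comparison without an adjusted p, and these were not called. The code was tested on simulated data. Nothing in the labels says that replicates were separate cultures, although the methods speak of independent biological samples, so p-values measure the spread between these libraries.

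The members, lists and tests were chosen with earlier results of these data known. Named genes were all members, RACK1 and OARD1, and the called genes of each list, or, where over 6 were called, the 3 largest rises and falls. CDC20, CDC25B, CDKN1B, CCNB2, CDK7, CCNH, MNAT1, CKS1B, CKS2, PLK1, ANAPC2, ANAPC10, FZR1, UBE2C and UBE2S were named after their values were seen. Alternatives were edgeR 4.0.16 (quasi-likelihood test), TMM factors, other count filters, exon counts, a replicate block, all 8 libraries, an adjusted p under 0.1, a fold threshold (absolute log2 value of 1 or more), and leaving out each library. Counts and intervals carry counting error, and with 2 libraries per group only larger changes can be resolved.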

Additional observations from a re-analysis of the deposited data

How the results depend on the processing

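Over the alternatives, 96 of 99 member values in the RACK1 comparison, 93 of 99 in the siTARG1 comparison and 116 of 126 of their differences kept their direction and their side of the threshold. The CCNB1 change in siTARG1 cells ranged from -0.53 to -0.41, with adjusted p from 1.84e-07 to 0.0516. The count of members called there, 1, was 0 where an absolute log2 value of 1 or more was required and 0 to 1 with a library left out, the 0 being without siTARG1 replicate 2. The members that differed between the comparisons, 1, were 2 in edgeR (CCNB1 and CCND3), 0 with that fold threshold and 0 to 1 with a library left out. Over all genes, the RACK1 comparison had 10 calls, 30 in edgeR, 0 with the fold threshold and 1 to 3 with a library left out. The siTARG1 comparison had 1974, 3470 in edgeR, 659 with the fold threshold and 564 to 744 with a library left out. The other listed cell cycle genes called in siTARG1, 24, were 38 in edgeR, 4 with the fold threshold and 4 to 7 with a library left out, and in RACK1-Mut, 0, they were 1 in edgeR.

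Replicate numbers did not pair the libraries: the deviations of same-numbered libraries correlated at 0.0832 over 9055 genes in the RACK1 and 0.0307 over 8148 genes in the siRNA experiment. With the replicate block, calls went from 10 to 6, from 1974 to 1125 and, for the other listed genes in siTARG1, from 24 to 11. CCNB1 kept its call under the block (-0.47, adjusted p = 0.00162), and the block changed no other call of a member.

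No value that changed sign had passed the test. With a library left out, CDK1 in RACK1-Mut ranged from -0.0599 (without RACK1-WT replicate 2; -0.0505 without RACK1-Mut replicate 1) to 0.0875, and CDK2 from -0.157 to 0.00953 (without RACK1-Mut replicate 2). In siTARG1, CCND1 ranged from -0.240 to 0.106 (without siControl replicate 1) and CDK4 from -0.0918 (without siControl replicate 1) to 0.0831, and CDK4 was at -0.00168 in edgeR and -0.00237 with TMM factors. The difference between the comparisons ranged from -0.223 to 0.125 for CCND1 and from -0.0480 to 0.0471 for CCNA2. The order of the levels kept 15 of 36 places with counts over whole exons, which include UTRs of unequal length, and 36 with RPKM as deposited. The 5′ UTR order kept 26 of 36 places per kilobase. A fit without a library leaves 1 in its group, which is then assumed to vary like the other group. The cause of each change was not tested.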

Other observations

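Over the 8 libraries, after the mean of each experiment was subtracted, the log2 normalized coding counts of 3 genes followed those of CCNE1 most closely among 6709 genes with a mean of at least 100. These were RSBN1 (Pearson r = 0.973), CAPG (0.967) and SNX17 (0.964), and the gene in place 100 had an r of 0.856. The libraries share groups and depth, 4 group means lie behind the 8 points, and the values are a description of the libraries with no test.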
